A study of Mus musculus with 24 samples.

Results

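The genes described here are 10 members of the machinery that moves calcium and phosphate from blood into milk: the plasma membrane calcium pumps Atp2b1 and Atp2b2, the Golgi pumps Atp2c1 and Atp2c2, the calcium entry channel Orai1 with its store sensor Stim1, the phosphate carriers Slc34a2 and Slc20a1, the hormone gene Pthlh and the calcium-sensing receptor Casr. They were taken by gene name from all non-control probes of a mouse expression array and are 10 of 36591 genes on it, with 22 probes between them. Of these, 9 genes passed the filter on dim probes and were tested among 22382 genes. Casr did not pass and is described by its detection only.

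The study compared mammary glands of C57BL/6 mice that were wild type or carried the R96C knock-in allele of SOCS2, a gene whose product restrains cytokine and growth hormone signalling; the design text calls the mice homozygous. Inguinal glands (number 4) without the lymph node came from virgins aged 8 weeks, 7 wild type and 7 knock-in, and, on day 18 of pregnancy, 5 wild-type and 5 knock-in mice. Each of the 24 arrays held the RNA of 1 mouse with its own number. The age of the pregnant mice is not in the labels used here, so pregnancy and age cannot be told apart. In whole glands, more cells of a type and more RNA per cell cannot be told apart either.

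Milk calcium enters the secretory epithelial cell from blood through store-operated channels, in which STIM proteins sense the filling of internal stores and open ORAI channels. It then leaves towards the milk either in secretory vesicles loaded by Golgi pumps or across the apical membrane through plasma membrane pumps, of which PMCA2, the Atp2b2 product, is the main one in mouse milk. Phosphate reaches milk by Golgi and apical carriers, and PTHrP, the Pthlh product, is made by the lactating epithelium and mobilises calcium from maternal bone, with the calcium-sensing receptor adjusting both its secretion and calcium transport.

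Values below are levels on the log2 scale, each being the log2 processed signal of a probe minus the 75th percentile of its array, so a level of 0 lies at that percentile. Between 33374 and 57003 of 59305 non-control spots per array were well above background. A pair of arrays stood apart. That of knock-in virgin mouse 376 had a negative control median of 58.7 and the highest count of spots above background, and that of knock-in day-18 mouse 184 had a median of 6.76 and 43055 such spots, against a median of at most 3.02 on the other arrays. Where leaving out mouse 376 changed a member's call, or clearly moved its stage difference at its brightest probe, the value without that mouse is given. The labelled tissue held its markers: all 6 secretory epithelium genes rose by day 18 in both genotypes. Over all tested genes 21% were higher and 20.8% lower in wild type, and 22.6% and 20.4% in knock-in. Other cell types moved as well. In wild-type day-18 glands 7 of 7 fibroblast, 5 of 10 adipocyte and 5 of 6 nerve markers were lower. Of 9 myoepithelial markers 5 were higher and 0 lower, and of 12 luminal markers 5 were higher and 1 lower. In knock-in glands 7 fibroblast, 6 adipocyte and 5 nerve markers were lower and 1 nerve marker higher. There 8 myoepithelial markers were higher and 0 lower, and 6 luminal markers were higher and 1 lower. The mean level of the luminal list ranged from -0.30 to 2.16 in wild-type virgins, from -3.75 to 1.57 in knock-in virgins, from 1.88 to 2.41 in wild-type and from 2.10 to 2.70 in knock-in day-18 glands. The part of cell composition in the changes below was not tested.

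By day 18 most of the transport genes had risen. In wild-type glands 7 of the 9 tested members were higher, 1 was lower and 1 did not pass the test, where 21% of all tested genes were higher and 20.8% lower at an adjusted p under 0.05 (limma, Benjamini-Hochberg). In knock-in glands 8 were higher and 1 was lower, against 22.6% and 20.4% of all genes. The median log2 difference of the 9 members was 1.45 in wild-type and 1.89 in knock-in glands, and that of all genes was 0.02 and 0.04. Atp2b2 and Slc34a2 passed the filter on dim probes only through the day-18 groups, which fixes their direction, so these counts and medians describe the members and support nothing further. Leaving out mouse 376 gave 8 higher and 1 lower in each genotype. The share of all genes called rose as well, from 41.9% to 57.3% in wild type and from 43.1% to 55.1% in knock-in. Under scaling to the 7 spike-in probes, which lowered the median difference of all genes by 0.92 in wild-type and 0.83 in knock-in glands, 5 members were higher in wild type and 6 in knock-in, and 1 was lower in each. Under that scaling 7.72% of the called genes in wild type were higher, against 50.3% with the 75th percentile, and 10.5% against 52.5% in knock-in glands. Of all 22382 genes, spike-in scaling called 1143 higher in wild type and 1371 in knock-in, against 4709 and 5061 with the 75th percentile.

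**Figure D1:**
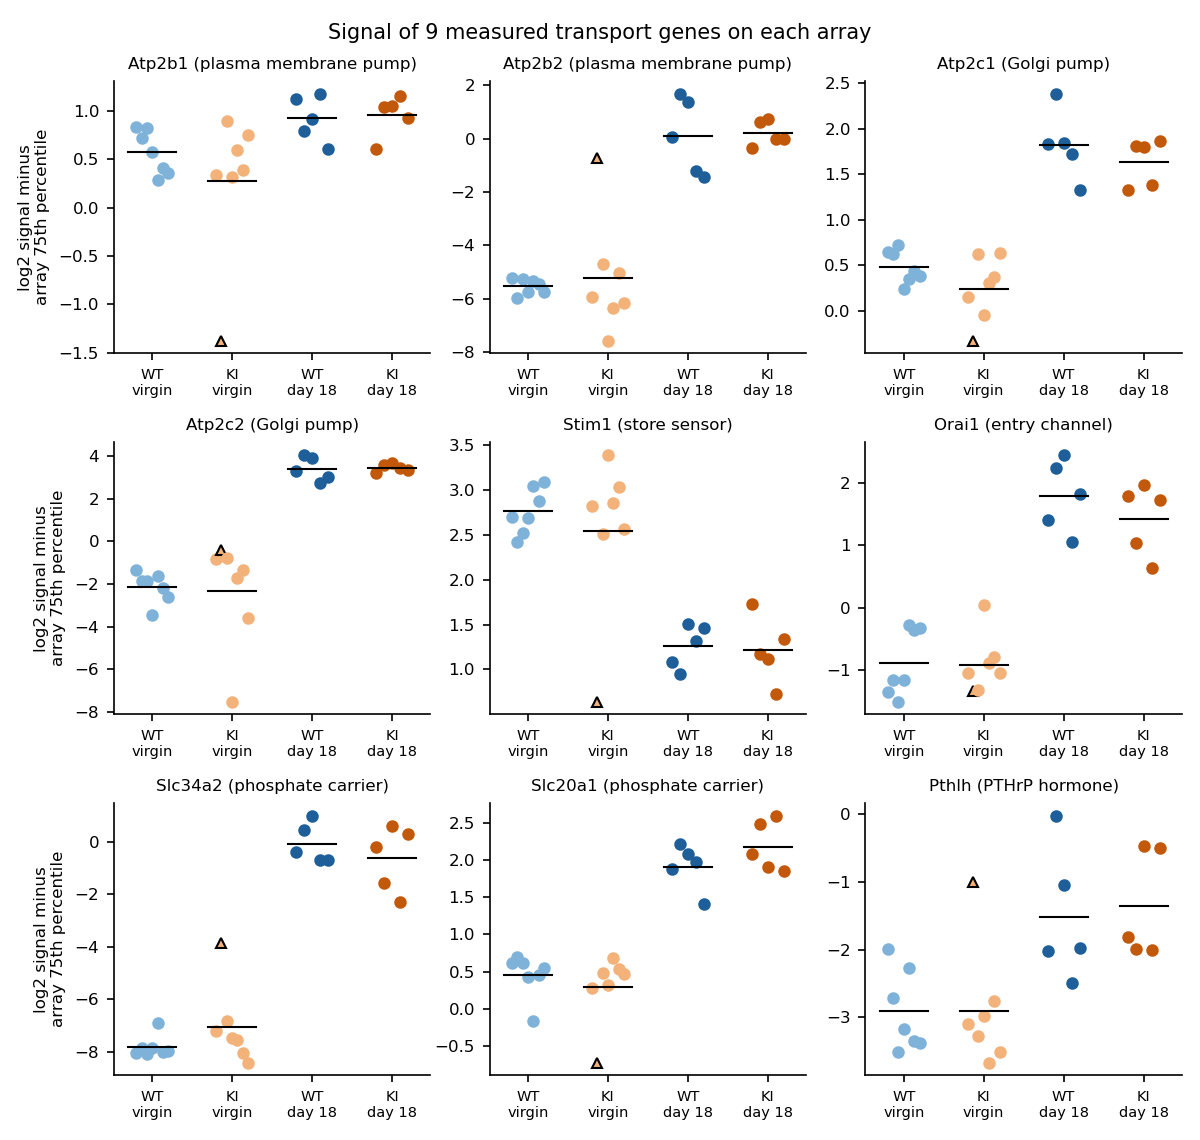
Level of the probe that stands for each of 9 genes on every array (y axis, log2 signal minus the array's 75th percentile), by group (x axis); points are mice, black lines group means, and black-edged triangles mark mouse 376. Slc34a2 and Atp2c2 show day-18 groups far above both virgin groups, Stim1 shows the opposite order, and Atp2b1 and Pthlh overlap between stages.

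The calcium pump of the apical membrane, Atp2b2, went from near background to clear signal. Its brighter probe was detected (well above background) in 4 of 7 virgin wild-type glands, 3 of 7 virgin knock-in glands and all 10 day-18 glands. It passed the filter on dim probes only through the day-18 groups, which fixes its direction, so the p-values below describe the fit only. In wild-type virgins its level had a lowest value of -5.96, a median of -5.44 and a highest of -5.21; the wild-type day-18 mice had 0.08, 1.68, 1.37, -1.21 and -1.44. Knock-in virgins ran from -7.58 over a median of -5.93 to -0.72, and knock-in day-18 mice had -0.34, 0.64, 0.72, -0.03 and -0.02. The groups did not overlap between stages in either genotype, although the highest knock-in virgin value, that of mouse 376, lay near the lowest knock-in day-18 value and above 2 of the wild-type day-18 values. The log2 difference was 5.63 ± 0.76 (SE, adjusted p = 3.45e-06) in wild-type and 5.41 ± 0.76 (adjusted p = 5.19e-06) in knock-in glands by limma, and 6.15 in knock-in glands without mouse 376. With each undetected virgin value raised to the lowest signal well above background on its array, day-18 levels were at least 48.1-fold higher in wild type and 28.6-fold in knock-in, or 44.9-fold there without mouse 376. With normexp background correction the log2 differences were 4.11 and 3.74, and under spike-in scaling 4.71 and 4.58. All lie under those bounds, which were 5.59 and 4.84 on the log2 scale. Bounds of this kind, here and below, therefore hold only for the main background correction and scaling. With the main processing, the log2 difference ranged within the 3 slides from 4.18 to 6.96 in wild type and from 3.77 to 7.64 in knock-in. Slide 1 held 1 wild-type day-18 array and slide 3 held 1 knock-in day-18 array. Some ends of such ranges, here and below, therefore rest on 1 day-18 mouse.

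A second Atp2b2 probe, 57123 bases from the first in the annotation of the array (mm9, chr6, minus strand), gave the same direction. It was above background on 1 of 7 virgin arrays of each genotype and on every day-18 array. It thus passed the filter on dim probes only through the day-18 groups, which fixes its direction. Against the same floor its day-18 level was at least 92.2-fold higher in wild type and 57.8-fold in knock-in glands. The limma fit over 35117 probes used levels not raised to the floor (adjusted p = 1.29e-08 and 1.17e-07). These p-values describe the fit only.

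Atp2b1, which encodes the widely expressed plasma membrane pump PMCA1, moved little. Wild-type virgins had a lowest level of 0.29, a median of 0.58 and a highest of 0.84, and wild-type day-18 mice had 1.13, 0.79, 0.92, 1.18 and 0.61. In knock-in virgins levels ran from -1.37 over a median of 0.39 to 0.89, and knock-in day-18 mice had 0.60, 1.04, 1.05, 1.15 and 0.92. Stages overlapped in both genotypes, and mouse 376 held the lowest value by far. The log2 difference was 0.35 ± 0.26 in wild type and did not pass the test (limma, adjusted p = 0.310, 95% interval -0.20 to 0.90). In knock-in glands it was 0.68 ± 0.26 and passed narrowly (adjusted p = 0.0411); it was 0.41 without mouse 376, when the wild-type difference of 0.35 also passed (adjusted p = 0.0349). Under spike-in scaling the sign turned, to -0.57 in wild type and -0.15 in knock-in, and neither passed. A second Atp2b1 probe 2803 bases away differed by 0.15 ± 0.19 and 0.27 ± 0.19, which did not pass in either genotype (adjusted p = 0.592 and 0.298).

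The secretory pathway pump SPCA2, encoded by Atp2c2, rose 47.1-fold in wild-type glands, and its relative SPCA1, encoded by Atp2c1, rose 2.53-fold at its brightest probe. Atp2c2 had a lowest level of -3.44, a median of -1.87 and a highest of -1.35 in wild-type virgins, and 3.33, 4.07, 3.93, 2.76 and 3.04 in wild-type day-18 mice. In knock-in glands the virgins ran from -7.53 over -1.36 to -0.42 and the day-18 mice had 3.23, 3.58, 3.69, 3.45 and 3.37. No virgin gland reached the level of any day-18 gland. The difference was 5.56 ± 0.80 (47.1-fold, adjusted p = 8.04e-06) in wild type and 5.78 ± 0.80 (55.1-fold, adjusted p = 4.34e-06) in knock-in by limma, and 4.96 and 4.75 with normexp background correction. Without mouse 376 the knock-in difference was 6.10 ± 0.81.

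The lowest Atp2c2 value, -7.53, was the only one not well above background and belonged to knock-in virgin mouse 198. The same array had the lowest mean level of luminal markers, -3.75, and the highest of skeletal muscle markers, 6.55; the part of tissue composition in the value was not tested. Without the arrays of mice 376, 198 and 184 together the knock-in difference of Atp2c2 was 5.07 ± 0.47. Within slides the Atp2c2 difference ranged from 5.05 to 6.35 in wild type and from 4.08 to 8.27 in knock-in glands.

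At its brightest probe Atp2c1 had a lowest level of 0.24, a median of 0.43 and a highest of 0.72 in wild-type virgins, and 1.84, 2.38, 1.84, 1.73 and 1.33 at day 18. Knock-in virgins ran from -0.33 over 0.31 to 0.63, and knock-in day-18 mice had 1.32, 1.81, 1.80, 1.38 and 1.87. Again the stages were separate in both genotypes. The log2 difference was 1.34 ± 0.19 (2.53-fold, adjusted p = 4.97e-06) in wild type and 1.39 ± 0.19 (2.63-fold, adjusted p = 2.57e-06) in knock-in glands, ranging within slides from 1.14 to 1.63 and from 0.82 to 1.67. Under spike-in scaling it was 0.42 in wild type and did not pass (adjusted p = 0.112).

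The 5 Atp2c1 probes gave rises of different size, so their sequences are shown. Each line gives the first 30 of the probe's 60 bases, 5′ to 3′, in the order of their place on the minus strand of chromosome 9 (mm9) from the 3′ side to the 5′ side.
chr9:105313725-105313784, the brightest: gtagaggttgagaatatgactcatgaaatg
chr9:105337460-105337519: ttatgaagggtgcttatgagcaggtgatta
chr9:105370052-105370111: agtcatagtcgagccttccatggttggaat
chr9:105371623-105371682: ggacttaggtgatattgccatgtcctaaga
chr9:105422390-105422449, the farthest 5′: ttttcctccgtggtagaaaatgacccagtt

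In wild-type glands the probes differed between stages by 1.34 ± 0.19, 1.50 ± 0.40, 2.18 ± 0.24, 1.67 ± 0.27 and 5.25 ± 0.66 on the log2 scale in that order, and all 5 passed the test over probes, where 18.3% of probes were higher and 20.5% lower. In knock-in glands the differences were 1.39 ± 0.19, 1.19 ± 0.40, 2.15 ± 0.24, 1.80 ± 0.27 and 4.34 ± 0.66, and all passed, against 19% of probes higher and 20.4% lower. The last probe is annotated to an Ensembl transcript of the gene and lies 108665 bases from the brightest one. It passed the filter only through day 18; with undetected virgin values raised to the floor its day-18 level was at least 36.5-fold higher in wild type and 18.2-fold in knock-in, or 26.4-fold there without mouse 376. The other 4 probes, detected on all arrays, lay between 2.53-fold and 4.53-fold in wild type.

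Its levels in wild-type virgins ran from -6.32 over a median of -5.34 to -3.38, with 5 of 7 arrays above background, and wild-type day-18 mice ranged from -0.62 over 0.07 to 1.16. The knock-in virgins had levels from -6.29 over -4.98 to -0.93, also with 5 of 7 above background, and knock-in day-18 mice from -0.67 over 0.11 to 0.67. Within arrays, the change at this probe exceeded that at the brightest probe by 3.91 in wild type and 2.95 in knock-in glands, or 3.60 there without mouse 376. This pair of probes was picked after their values were seen, so the excess is a description with no test. The genes beside Atp2c1 in RefSeq order, Aste1 and Pik3r4, differed by 0.07 and -0.40 in wild type and did not pass.

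**Figure D2:**
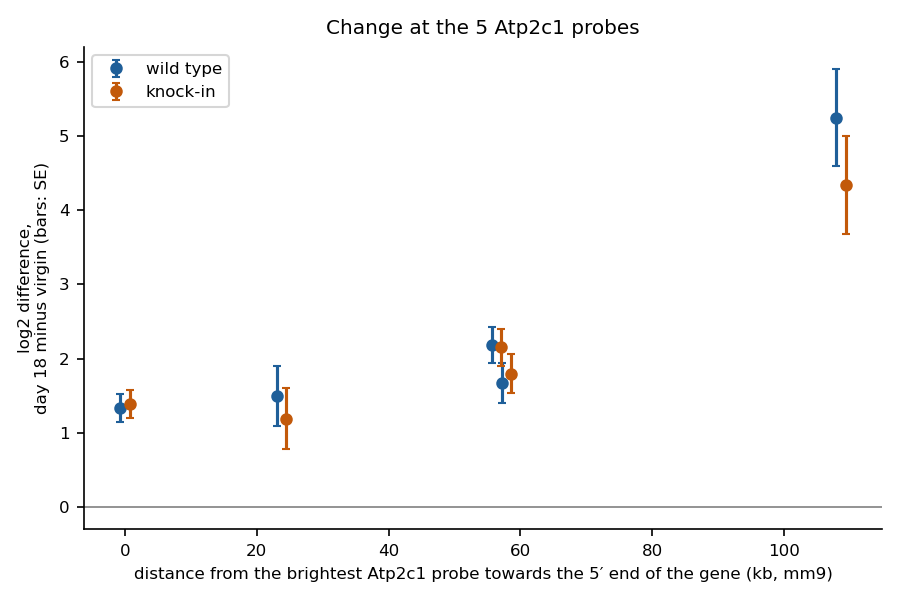
Log2 difference between day-18 and virgin glands (y axis, with SE) at the 5 Atp2c1 probes, by distance from the brightest probe towards the 5′ end of the gene (x axis, kb), for wild-type and knock-in mice. The probe farthest to the 5′ side lies at 5.25 in wild type and 4.34 in knock-in, and the other 4 between 1.19 and 2.18.

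The 2 partners of store-operated entry moved in opposite directions, the channel up and the sensor down. Orai1, which encodes the pore, had a lowest level of -1.51, a median of -1.16 and a highest of -0.28 in wild-type virgins, and 1.41, 2.24, 2.45, 1.06 and 1.83 at day 18. Knock-in virgins ran from -1.34 over -1.05 to 0.05 and knock-in day-18 mice had 1.79, 1.04, 1.97, 0.63 and 1.73. Every day-18 gland lay above every virgin gland. The log2 difference was 2.68 ± 0.30 (6.41-fold, adjusted p = 3.39e-07) in wild type and 2.35 ± 0.30 (5.08-fold, adjusted p = 1.81e-06) in knock-in, ranging within slides from 1.77 to 3.71 and from 1.92 to 2.71.

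Stim1, the sensor of stored calcium, was the member that fell. Wild-type virgins had a lowest level of 2.42, a median of 2.70 and a highest of 3.10, and wild-type day-18 mice had 1.08, 0.95, 1.51, 1.31 and 1.46. Among knock-in virgins levels went from 0.64 over a median of 2.83 to 3.40, and knock-in day-18 mice had 1.73, 1.17, 1.12, 0.72 and 1.34. The stages were separate in wild type and overlapped in knock-in glands only through mouse 376. Stim1 fell by 1.50 on the log2 scale (SE 0.31, adjusted p = 0.000441, limma) in wild type and fell by 1.33 in knock-in glands (SE 0.31, adjusted p = 0.00129), or by 1.65 there without mouse 376; within slides the wild-type difference ranged from -1.62 to -1.05 and the knock-in difference from -1.98 to -0.96.

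The fall of Stim1 was seen at 3 probes. The other 2 differed by -1.45 and -1.60 in wild type and by -1.40 and -1.20 in knock-in glands, and each passed over all probes. Without mouse 376 their knock-in differences were -1.68 and -0.84. With arrays scaled to their median the Stim1 difference was -1.32 in wild type and -1.13 in knock-in and passed in neither (adjusted p = 0.114 and 0.187). Stim1 fell alongside the fibroblast markers, whose mean level ran from 5.88 to 6.35 in wild-type virgins and from 3.85 to 4.64 in wild-type day-18 glands, and their part in the Stim1 change was not tested. The remaining Stim1 probe, annotated to an Ensembl transcript, was above background on 1 of 24 arrays.

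Among the phosphate carriers, the sodium-phosphate cotransporter Slc34a2 (NaPi-IIb) went from below background to clear signal. Its level in wild-type virgins had a lowest value of -8.08, a median of -7.97 and a highest of -6.89, and at day 18 the values were -0.40, 0.43, 0.99, -0.69 and -0.71. Knock-in virgins ran from -8.42 over -7.49 to -3.85, and knock-in day-18 mice had -0.21, -1.56, 0.59, -2.28 and 0.28. No virgin array of either genotype was well above background and all 10 day-18 arrays were, so virgin levels are bounds. The probe passed the filter only through the day-18 groups, which fixes its direction, so the p-values below describe the fit only. Against the lowest signal well above background on each virgin array, or the probe's own where higher, the day-18 level was at least 52.6-fold higher in wild type and at least 25.1-fold higher in knock-in, and at least 30.9-fold higher there without mouse 376. The fitted log2 differences were 7.74 ± 0.59 (adjusted p = 1.00e-09) and 6.42 ± 0.59 (adjusted p = 1.63e-08, limma), with within-slide ranges of 6.92 to 8.93 and 4.96 to 8.02, and 6.96 in knock-in glands without mouse 376. They rest on virgin signals below background and on how background was removed: with normexp correction they were 3.48 and 2.89, under those of Atp2c2 and Atp2b2. The normexp values of Slc34a2 also lie under its bounds above, which were 5.72 and 4.65 on the log2 scale.

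A second probe named Slc34a2 was above background on 2 of 24 arrays. The array's annotation places its 60 bases over a stretch of 19978 bases, between chr5:53429415-53449392 of mm9, and pairs it with an Ensembl transcript. The probe that carries the result and the one without signal are shown by their first 30 bases.
Slc34a2 at chr5:53461649-53461708, signal at day 18: tgtttatcttgttttgtgcaaggagacttg
Slc34a2 at chr5:53429415-53449392, near background: ccagctctccggatctctccagttctctga

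Slc20a1 (PiT-1), a phosphate carrier found in most cells, rose less and from a measurable virgin level. Wild-type virgins ran from -0.16 over a median of 0.55 to 0.70, and wild-type day-18 mice had 1.88, 2.21, 2.08, 1.97 and 1.41. Levels in knock-in virgins went from -0.72 over 0.47 to 0.68, and knock-in day-18 mice had 2.08, 2.48, 1.90, 2.59 and 1.85. The stages did not overlap. The log2 difference was 1.45 ± 0.22 (2.73-fold, adjusted p = 1.35e-05) in wild type and 1.89 ± 0.22 (3.70-fold, adjusted p = 3.97e-07) in knock-in, with within-slide ranges of 1.41 to 1.52 and 1.58 to 2.21, and 1.72 in knock-in glands without mouse 376. A second Slc20a1 probe was above background on 2 of 24 arrays.

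Pthlh, the gene of PTHrP, rose with wide spread. Wild-type virgins ran from -3.51 over a median of -3.17 to -1.99, and wild-type day-18 mice had -2.02, -0.02, -1.04, -2.49 and -1.98. Knock-in virgins ran from -3.67 over -3.10 to -0.999, and knock-in day-18 mice had -1.82, -1.99, -0.466, -2.002 and -0.51. Stages overlapped in both genotypes, in knock-in glands only through mouse 376. The log2 difference was 1.40 ± 0.46 (adjusted p = 0.0159) in wild type and 1.54 ± 0.46 (adjusted p = 0.00829) in knock-in, and 1.86 ± 0.40 there without mouse 376. Within slides it ranged from 0.77 to 2.32 and from 1.20 to 2.10. The wild-type call rested on mouse 233: without it the difference was 1.03 (adjusted p = 0.0736). Under spike-in scaling Pthlh differed by 0.48 and 0.72 and passed in neither genotype.

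Casr, the calcium-sensing receptor, gave no usable signal. Its 2 probes were above background on 3 and 5 of 24 arrays, among them the arrays of mice with high muscle marker levels or high background. Without the filter on dim probes its log2 difference was -0.48 ± 1.22 in wild type and 0.15 ± 1.22 in knock-in glands, and neither passed (limma, adjusted p = 0.850 and 1.00). A change of Casr was not detectable with these probes.

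**Figure D3:**
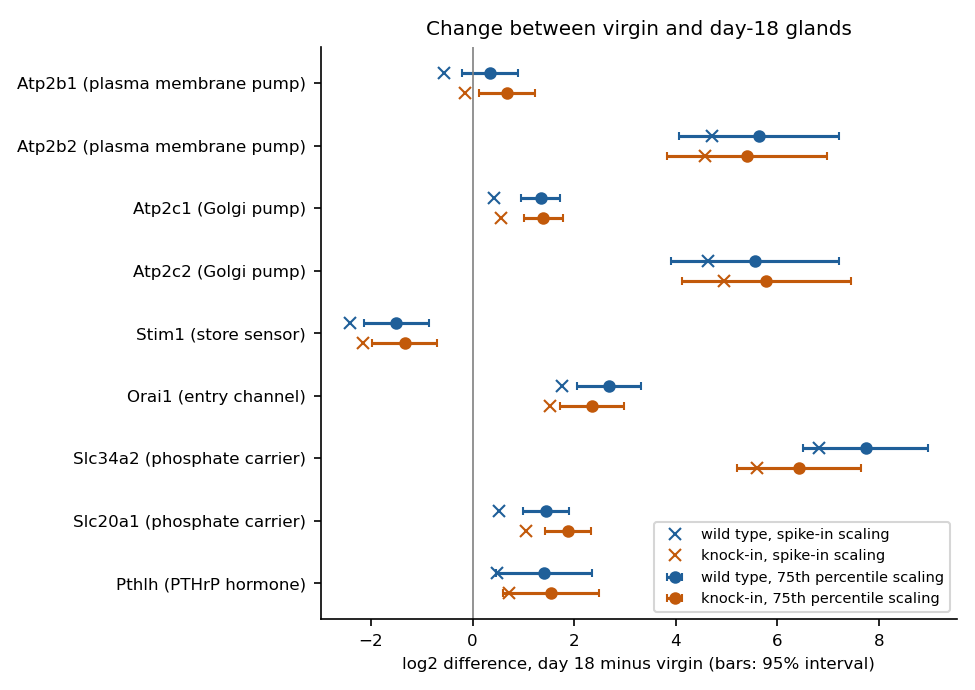
Log2 difference between day-18 and virgin glands (x axis) for 9 genes in wild-type and knock-in mice; circles with bars are 75th percentile scaling with 95% intervals, and crosses are spike-in scaling. Slc34a2, below background in virgins, is plotted at fitted values of 7.74 and 6.42, Stim1 alone lies below 0 under both scalings, and Atp2b1 crosses 0 under spike-in scaling.

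At day 18 some mice ranked high or low for several members at once. Ranks were taken over the 9 members only, with no such count over all genes. Of the 5 wild-type mice, 233 and 206 were the highest pair for Atp2b2, Atp2c1, Atp2c2, Orai1, Slc34a2, Pthlh and Slc20a1. For Atp2c1 mouse 206 (1.841) lay just above mouse 234 (1.836). Mouse 206 was among the 2 highest for 8 of the 9 members and mouse 233 for 7, while mouse 235 was the lowest for 5. The secretory marker level of the 5 wild-type mice ran from 7.66 (mouse 232) to 8.40 (mouse 206). Its part in these ranks was not tested. In knock-in glands mouse 184 was the highest for 5 members, the mouse whose array stood apart with its high negative controls.

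Other genes of the same pathways were called in both directions, in shares to be read against those over all genes. These were 21% higher and 20.8% lower in wild-type glands, and 22.6% higher and 20.4% lower in knock-in glands. These lists of related genes follow textbook roles and share no gene with the 10 members. They were chosen with earlier results of these data known, so their counts are a description. Of 10 tested pumps and exchangers, 1 was higher and 3 were lower in wild-type glands, counts near those shares. The Golgi ion exchanger Tmem165 rose by 2.69 ± 0.27 in wild type and 2.45 ± 0.27 in knock-in on the log2 scale. Atp2b4, a further plasma membrane pump, fell by 1.84 and fell by 1.73, and the reticulum pump Atp2a3 fell by 0.94 and fell by 0.76. The sodium-calcium exchanger Slc8a1 was above background on 1 of 5 wild-type day-18 arrays and at least 2.60-fold lower there than in virgins (limma adjusted p = 0.0223); its knock-in difference of -0.88 did not pass (adjusted p = 0.201).

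Of 14 tested entry channels and store sensors, 4 were higher and 3 lower in wild-type glands, also near the shares over all genes (21% and 20.8%). Stim2, the sensor that responds to small losses of stored calcium, rose by 1.27 ± 0.22 in wild type and 1.23 ± 0.22 in knock-in, opposite to Stim1. Stimate, which promotes the coupling of STIM1 to the membrane, rose by 1.94 ± 0.23 in both, and the cation channel Trpm4 by 0.87 and 1.07. Trpc1 was above background on 2 of 5 wild-type and 0 of 5 knock-in day-18 arrays, and was at least 2.32-fold and 3.16-fold lower there than in virgins. It passed the filter on dim probes only through the virgin groups, which fixes its direction.

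Of 14 tested calcium-binding proteins, 2 were higher, 3 were lower and 9 did not pass in each genotype. These counts lie near or below the shares over all genes (21% higher and 20.8% lower in wild type, 22.6% and 20.4% in knock-in). The 2 that rose did so strongly: Fam20c, the Golgi kinase that phosphorylates caseins, by 4.27 ± 0.19 and 4.13 ± 0.19, and Nucb2, a calcium-binding nucleobindin, by 3.49 ± 0.19 and 3.67 ± 0.19. The reticulocalbins Rcn1 and Rcn3 of the endoplasmic reticulum fell by 1.67 and fell by 1.68 in wild type. Among 7 tested phosphate transporters 3 were higher and 2 lower in each genotype, against the same shares over all genes. The largest rise was that of the sugar-phosphate exchanger Slc37a1, at 2.80 ± 0.36 and 2.50 ± 0.36. Enpp1, an ectoenzyme that makes pyrophosphate, rose by 1.30 and 1.72, and the pyrophosphate exporter gene Ank fell by 1.83 and fell by 2.35, as did Slc37a2 by 1.53 and 1.48.

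Of 10 tested hormone receptors and partners, 4 were higher and 4 lower in each genotype. Among those higher, Cyp24a1 and Kl passed the filter on dim probes only through day-18 groups, which fixes their direction, so the count is a description. Over all genes the shares higher and lower were 21% and 20.8% in wild type, and 22.6% and 20.4% in knock-in. The vitamin D receptor gene Vdr rose by 4.94 ± 0.69 in wild type and 5.18 ± 0.69 in knock-in. Cyp24a1, whose enzyme degrades active vitamin D, was above background on no virgin array and on all 10 day-18 arrays, and was at least 7.03-fold higher in wild type and at least 7.21-fold higher in knock-in at day 18. Msx2, a homeobox gene that acts with PTHrP in the embryonic breast bud, fell by 3.02 and fell by 2.53. Kl (klotho) was above background on 2 of 5 wild-type and 5 of 5 knock-in day-18 arrays and on 1 of 14 virgin arrays, so no fold is given.

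**Figure D4:**
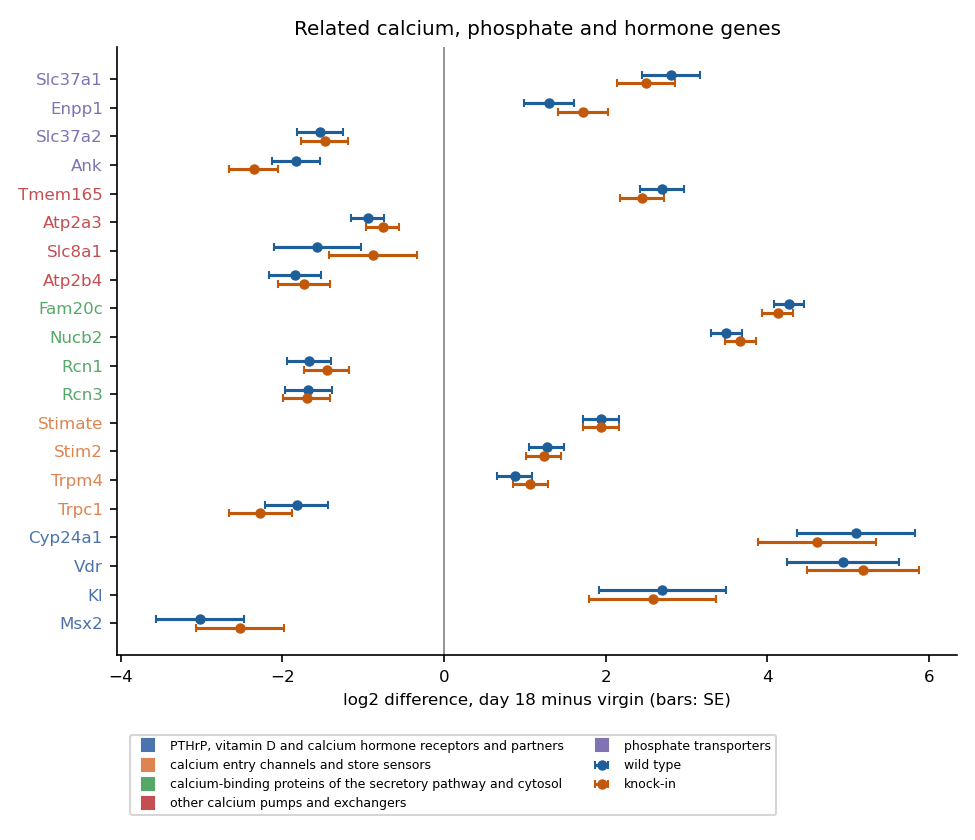
Log2 difference between day-18 and virgin glands (x axis, bars are SE) for 20 related genes, 4 per list, in wild-type and knock-in mice; gene names are coloured by list. Fam20c, Nucb2, Vdr and Cyp24a1 lie above 3 and Msx2 lies at -3.02 and -2.53. Fitted values of Cyp24a1 and Kl rest on virgin signals mostly or wholly below background. Those of Trpc1 in both genotypes and of Slc8a1 in wild type rest on such day-18 signals. In knock-in mice Slc8a1 was above background on 4 of 5 day-18 arrays.

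The knock-in comparison asked whether the allele altered these genes at either stage, and no member passed. At adjusted p under 0.05, 0 of 9 members were called in virgins, at day 18 or for the interaction of genotype and stage, as were 0% of all tested genes in each comparison. At an unadjusted p under 0.05 limma gave 803 genes in virgins, 437 at day 18 and 230 for the interaction, of which 0 were members. Every member's wild-type and knock-in values overlapped at both stages. Such overlap was not counted over all genes, so it describes the members only. In virgins the knock-in minus wild-type log2 differences ran from -0.30 (Atp2b1) to 0.76 (Slc34a2, below background in both), and at day 18 from -0.56 (Slc34a2) to 0.27 (Slc20a1). Mouse 376 carried both ends in virgins: without it Atp2b1 differed by -0.03 and Slc34a2 by 0.22, Atp2b2 turned from 0.32 to -0.43, and the range was -0.50 (Atp2c2) to 0.22.

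The intervals set how large a difference could have gone unseen. At day 18 the 95% interval was -0.60 to 0.23 for Atp2c1, -0.74 to 0.65 for Stim1, -0.22 to 0.76 for Slc20a1 and -1.05 to 0.31 for Orai1. It was wider for the most variable members, at -1.60 to 1.80 for Atp2b2, -1.75 to 1.83 for Atp2c2 and -1.88 to 0.77 for Slc34a2. The difference between genotypes in the stage change was largest for Slc34a2, at -1.32 ± 0.84 (95% interval -3.05 to 0.42, limma adjusted p = 1.00), where virgin signals were below background, and -0.78 ± 0.61 without mouse 376.

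**Figure D5:**
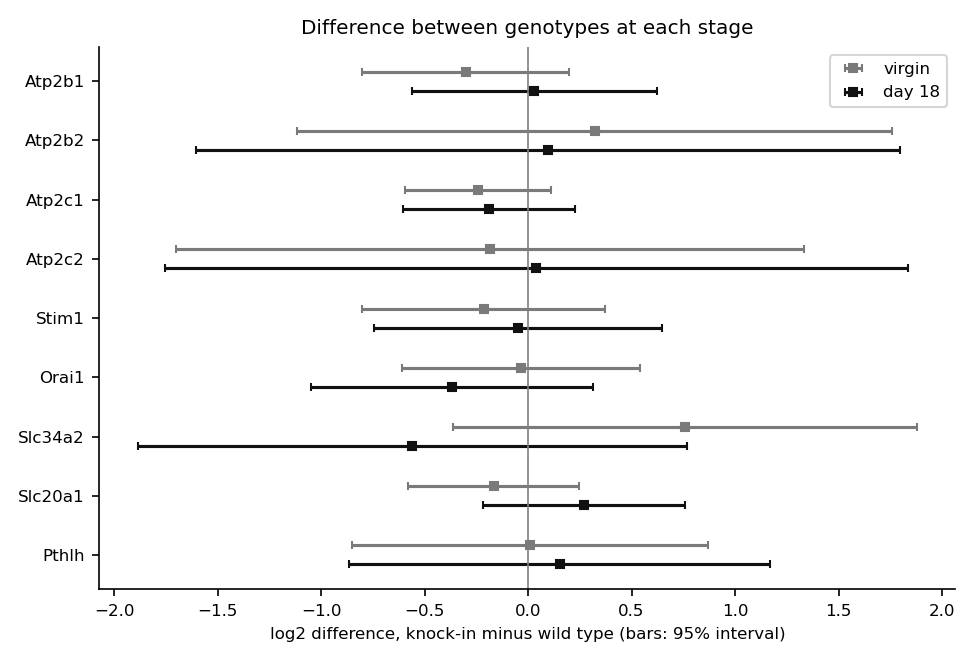
Knock-in minus wild-type log2 difference (x axis, bars are 95% intervals) for 9 genes in virgin glands and at day 18. All 18 intervals include 0, and those of Atp2b2, Atp2c2 and Slc34a2 are the widest.

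Across the 24 arrays the genes with the most similar profiles can be named for the 4 members that changed by at least 2 on the log2 scale. The measure was Pearson's r of log2 levels, and since the arrays of every pair share the stage difference it is given as a description. For Atp2c2 the closest named genes were Ttc39a (r = 0.989), Vdr (0.986) and Shroom1 (0.984). Slc34a2 was closest to Plekhf1 (0.993) and to Lpo, lactoperoxidase (0.992), Atp2b2 to Pkd1l3 (0.978) and Spata13 (0.977), and Orai1 to Pradc1 (0.968), Tirap (0.960) and Spast (0.958). For Slc34a2 and Atp2b2 the third gene was a non-coding region named only by position on the array.

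Prolactin signalling reaches milk genes through STAT5, whose dimers bind the palindrome TTCNNNGAA, and SOCS2 acts on the same route, so the RefSeq promoters of the members (GRCm38.p6, 250 bases before to 50 after a start) were searched for it on both strands. Of the 10 members 9 were matched, with 14 starts, and Atp2c2 was not. The motif, which reads the same on both strands in its fixed letters, was in the promoter of Orai1 only, beginning at position -207 relative to its start; 8.30% of 32851 promoters hold it. The 250 bases before the start are shown for Orai1, with the match in capitals, and for Slc34a2, whose main probe was detected only at day 18 and which has no match in this window.
Orai1, chr5:123014824-123015073, plus strand: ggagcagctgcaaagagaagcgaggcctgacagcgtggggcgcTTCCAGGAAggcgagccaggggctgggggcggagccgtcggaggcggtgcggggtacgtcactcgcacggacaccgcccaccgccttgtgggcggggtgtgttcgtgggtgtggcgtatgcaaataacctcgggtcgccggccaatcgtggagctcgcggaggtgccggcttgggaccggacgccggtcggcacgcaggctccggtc
Slc34a2, chr5:53049103-53049352, plus strand: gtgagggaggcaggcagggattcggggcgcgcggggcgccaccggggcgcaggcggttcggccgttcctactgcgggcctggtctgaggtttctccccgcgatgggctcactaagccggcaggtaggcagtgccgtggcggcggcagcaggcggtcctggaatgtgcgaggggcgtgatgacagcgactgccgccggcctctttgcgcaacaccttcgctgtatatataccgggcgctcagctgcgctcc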

How the data were processed

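The authors deposited one-colour Agilent scanner files, extracted with Feature Extraction 12.0.3.2 per the submitters' processing notes, with each spot's background-corrected processed signal as an intensity, and a series matrix on the log10 scale that matched log10 of that signal to within 0.005. Cy3-labelled cRNA was made from 100 ng of total RNA per the labels' protocols. Here log2 of the processed signal minus each array's 75th percentile was used; outlier spots were set to missing and replicate spots averaged. Probes were kept if at least 80% of the arrays in some group showed them well above background, and the brightest probe stood for a gene. A group-means model on 24 arrays (3 slides) was fitted in R 4.3.3 (limma 3.58.1) with Benjamini-Hochberg adjustment over 22382 genes and calls at 0.05; the method was tested on simulated data. Errors after ± are SE. Named were all members, the 4 largest called changes of each related list and the 3 nearest profiles per member that changed by at least 2. Alternatives changed background correction, scaling, filter, probe rule, block and arrays. The members and lists were chosen with earlier results of these data known.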

Additional observations from a re-analysis of the deposited data

Results flagged for a closer look

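Within each of 36 combinations of a member and a group, the most extreme mouse was set against its group by Dixon's gap criterion, which chance meets in about 1 of 20 groups. It was met 9 times, 6 of them by knock-in virgin mouse 376, the array with the high negative controls. On that array Atp2b2 (-0.72), Pthlh (-0.999) and Slc34a2 (-3.85) were the highest of the knock-in virgins, and Atp2b1 (-1.37), Slc20a1 (-0.72) and Stim1 (0.64) the lowest. Orai1 was highest in knock-in virgin mouse 198 (0.0485), whose muscle marker level was 6.55. In wild-type virgins mouse 369 had the highest Slc34a2 (-6.89), below background, and the lowest Slc20a1 (-0.16). The causes were not tested.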

How the results depend on the processing

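Over 37 alternatives, the members called between stages numbered 7 to 9 in wild-type and 8 to 9 in knock-in glands when 1 mouse was left out, and 5 to 9 and 6 to 9 under other settings. The lowest wild-type count, 5, came with only probes above background on all arrays, which left 6 members to test. Signs reversed only for Atp2b1 under spike-in scaling (-0.57 in wild type, -0.147 in knock-in), and neither passed. Atp2b1 in knock-in glands lost its call under 14 of the alternatives and Pthlh in wild type under 2 (spike-in scaling and leaving out mouse 233); Atp2c1 in wild type and Pthlh in knock-in lost theirs under spike-in scaling and Stim1 under median scaling alone. Atp2b1 in wild type gained a call under 4 alternatives. No genotype or interaction value of a member was called under any alternative; their signs turned in 36 of 330 values in virgins, 33 of 330 at day 18 and 25 of 321 for the interaction. Over all genes, 9367 were called in wild type and 9638 in knock-in, against 14800 under spike-in scaling and 5321 under median scaling in wild type, 5061 under median scaling in knock-in, and 14086 with array weights in wild type. No paired analysis was possible because the mice have distinct numbers that no groups share. With normexp background correction the rises of Slc34a2, Atp2b2 and Atp2c2 were smaller, without a change of call. The number of arrays limits the precision, as does array 376: without it the SE of Atp2b1 fell from 0.26 to 0.14 and 12833 genes were called in wild type. Probes below background give only bounds, and these hold only for the main background correction and scaling.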
